A study of Mus musculus with 78 samples.

Results

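Semaphorins, plexins and neuropilins were followed in mouse brain at 3 ages, E14 (embryonic), P0 (newborn) and P14 (postnatal). The members are all genes on the arrays whose annotated symbol begins with Sema3 to Sema7 or with Plxna, Plxnb, Plxnc or Plxnd, together with Nrp1 and Nrp2. They number 32 of 18194 genes and comprise 20 semaphorins, 10 plexin symbols and 2 neuropilins. Of the 79 probe sets that name a member, each gene was read from the brightest on average across the 78 Affymetrix arrays. A plexin symbol, Plxna4os1, is an antisense RNA of the Plxna4 locus and not a receptor.

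RNA of brain samples was hybridised 1 sample per array, in 26 groups of 3 that the labels call biological replicates. At each of the 3 ages the mutants were Lis1 ko/cko (a conditional over a null allele), Lis1 ko/+, Ndel1 ko/cko and Ndel1 ko/+, and the wild types were of mixed background A and mixed background B. Dcx ko/Y mutants were present at E14 and P0, and 14-3-3 epsilon ko/ko mutants at E14. At P0 there were also Ndel1 ko/+ inbred, 14-3-3 epsilon ko/ko inbred and inbred wild types. P14 added Ndel1 ko/+ labelled as mix background, and inbred wild types. The titles of Lis1 ko/cko and Lis1 ko/+ at P0 also carry the word Mix, without A or B. The sample titles give 129s6 for the inbred groups. The labels give no treatment, brain region or pooling for any group, and they name neither a Cre driver for the conditional alleles nor which mixed wild type belongs to which mutant. Lis1 is the product of Pafah1b1, which regulates the motor protein dynein together with the product of Ndel1. The series asks whether mutants of the LIS1 complex change gene expression alike or differently.

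Semaphorins are secreted or membrane-bound cues that steer growing axons and migrating neurons. Class 3 semaphorins are secreted and mostly act through a complex in which a neuropilin binds the ligand and a class A plexin signals. Sema3e can bind Plxnd1 without a neuropilin. Class 4 to 7 semaphorins are anchored in the membrane and bind plexins directly, Sema4d through B-type plexins, Sema6 proteins through Plxna2 and Plxna4, and Sema7a through Plxnc1 and integrins. Plexins signal through the GTPase-activating domain in their cytoplasmic part, which acts on small GTPases of the Ras family. In the developing forebrain, Sema3a repels cortical axons, Sema3c attracts them, and neuropilins route interneurons and commissural axons.

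RefSeq promoter windows of assembly GRCm38.p6, from 250 bases before to 50 bases after a start, were held for 26 of the 32 members, in 37 windows. The GC box (GGGCGG, searched on both strands) was found in 27 of the 37 member windows (73%), against 11714 of 32851 windows of all genes (35.7%). The TATA box (TATAAA, on both strands) was found in 0 of the 37 member windows and in 4473 of all windows (13.6%). The median GC content was 63.7% in the member windows and 52.7% in all windows. A match is a description of these letters and not a binding site, and 300 bases are a small part of a regulatory region. The 4 windows below belong to the members with the largest rises between P0 and P14, Plxnb3 and Sema3e, and to a pair of receptors with large falls, Plxna3 and Nrp2. All lie on the + strand and are printed 5′ to 3′ with the GC boxes in capitals.
Plxnb3, chrX:73756853-73757152: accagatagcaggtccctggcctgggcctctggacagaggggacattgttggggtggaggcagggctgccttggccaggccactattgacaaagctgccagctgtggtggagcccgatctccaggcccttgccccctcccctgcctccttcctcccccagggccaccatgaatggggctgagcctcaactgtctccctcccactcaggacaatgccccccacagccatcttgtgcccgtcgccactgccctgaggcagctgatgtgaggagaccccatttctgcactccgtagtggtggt
Sema3e, chr5:14025026-14025325: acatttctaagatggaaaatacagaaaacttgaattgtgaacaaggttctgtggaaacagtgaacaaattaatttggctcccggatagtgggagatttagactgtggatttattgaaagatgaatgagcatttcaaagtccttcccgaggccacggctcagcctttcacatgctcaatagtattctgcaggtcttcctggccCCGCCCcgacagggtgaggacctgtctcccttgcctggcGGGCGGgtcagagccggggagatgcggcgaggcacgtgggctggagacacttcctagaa
Plxna3, chrX:74328816-74329115: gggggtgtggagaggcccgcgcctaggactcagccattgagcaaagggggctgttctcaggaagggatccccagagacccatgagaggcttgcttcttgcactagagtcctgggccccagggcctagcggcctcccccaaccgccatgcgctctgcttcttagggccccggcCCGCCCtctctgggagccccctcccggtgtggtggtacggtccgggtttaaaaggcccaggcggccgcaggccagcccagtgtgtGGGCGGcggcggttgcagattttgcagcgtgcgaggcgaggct
Nrp2, chr1:62703067-62703366: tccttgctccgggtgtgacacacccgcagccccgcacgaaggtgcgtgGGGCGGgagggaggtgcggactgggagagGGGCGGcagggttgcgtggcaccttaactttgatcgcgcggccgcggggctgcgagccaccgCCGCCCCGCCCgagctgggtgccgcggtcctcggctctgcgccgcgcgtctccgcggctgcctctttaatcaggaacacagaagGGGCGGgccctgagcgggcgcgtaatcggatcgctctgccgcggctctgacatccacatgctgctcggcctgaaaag
Plxnb3 has 0 GC boxes in its window, Sema3e and Plxna3 have 2 each, and Nrp2 has 5, of which a pair shares 1 base.

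Values are log2 RMA intensities, and a probe set's level is compared only with its own level in other samples. A gene was called at an adjusted p under 0.05 (limma, Benjamini-Hochberg over all genes tested), with n = 3 arrays per group. The number of arrays limits the precision. Counts of members at an unadjusted p under 0.05 are given without the share of all genes at that threshold. They cannot be set against the shares of all genes called and are not read as results. Against both mixed wild types, or in both mixed backgrounds, a gene had to pass in each with the same sign, and its change is given as the average of the pair ± the larger standard error (SE). Changes between ages are given relative to the median gene, whose own shift was -0.19 between E14 and P0 and 0.13 between P0 and P14 in the mixed backgrounds, and 0.04 in the inbred one. Levels per array and calls are not shifted. In whole tissue, fewer cells of a type and less RNA per cell cannot be told apart.

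Some arrays go against their labels. Ywhae, the gene of 14-3-3 epsilon, stood at 12.68, 12.92 and 9.97 in the 3 arrays labelled 14-3-3 epsilon ko/ko at E14, against 12.97 to 13.10 in the mixed wild types, so the libraries labelled replicates 1 and 2 keep it. Ndel1 was not lower than in wild type in the libraries labelled Ndel1 ko/+ inbred at P0 and Ndel1 ko/+ mix at P14, and it overlapped mixed A in those labelled Ndel1 ko/cko at E14. Pafah1b1 in the libraries labelled Lis1 ko/cko and Lis1 ko/+ at P0 lay below mixed A but overlapped mixed B. Of the P0 libraries labelled Dcx ko/Y, replicate 2 held Xist at 11.27. Without going against a label, Xist was also high in mixed B replicate 1 at E14 (11.99) and Ndel1 ko/cko replicate 3 at P0 (11.54). All 3 Ndel1 ko/cko arrays at E14 held it at 11.91 to 12.02. The part of sex in the differences between groups was not tested, also for Plxna3 and Plxnb3 on the X chromosome. At E14, 6 arrays, among them mixed A replicates 2 and 3, had the lowest level of an 18-gene list of midbrain, hindbrain and spinal cord (4.21 to 4.37, against 4.65 to 6.57 in the other E14 arrays). Neuronal markers were high in all arrays, with a list mean of 10.68 to 12.27.

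Between P0 and P14 most receptors fell and the ligands went both ways. Of 30 members tested, 21 passed in both mixed backgrounds (70%), 9 higher and 12 lower at P14, while 56.4% of all genes tested passed. The members' calls lean to lower where those of all genes lean to higher, 34.3% higher and 22.1% lower. Among the neuropilins and plexins 1 of 11 rose and 7 fell, and among the semaphorins 8 of 19 rose and 5 fell. With the median gene subtracted before the test the split of members was 5 higher and 13 lower, and the counts of all genes in that test are not given here. With quantile normalization over all arrays it was 7 and 12, where all genes had 3896 higher and 3382 lower, a weaker lean to higher. Plxna4os1 and Sema3b were not tested, since no wild-type group reached the median of all values. Plxna4os1 stayed between 3.17 and 3.83 and Sema3b between 4.32 and 5.61 in all 78 arrays.

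Nrp2, the neuropilin that binds Sema3c and Sema3f, stood in mixed A at 8.01, 7.78 and 7.81 at P14 against 9.08, 9.31 and 9.38 at P0. Its mixed B values were 7.34, 6.68 and 7.01 at P14 against 9.27, 9.15 and 9.14 at P0. The ages do not overlap in either background, and Nrp2 fell by 1.91 ± 0.12 (SE; adjusted p = 9e-10). Nrp1, the main binding partner of Sema3a, stood in mixed A at 8.14, 8.28 and 8.45 at P14 against 10.07, 10.28 and 9.67 at P0. Mixed B held it at 9.49, 9.60 and 9.55 at P14 against 10.56, 10.16 and 10.14 at P0. Every P14 array was below every P0 array of its background, by a wider gap in mixed A, and Nrp1 fell by 1.36 ± 0.13 (adjusted p = 2.28e-05). All 4 probe sets of Nrp1 and all 4 of Nrp2 fell, with changes of -1.41 to -1.05 for Nrp1 and -1.78 to -0.63 for Nrp2 before the median shift.

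Class A plexins, the signalling partners of neuropilins, fell in 3 of 4 cases. Plxna3 stood in mixed A at 6.72, 6.79 and 6.54 at P14 against 8.28, 8.53 and 8.55 at P0, and in mixed B at 6.85, 6.75 and 6.74 against 8.36, 8.40 and 8.48. The 6 values of P14 lie well below the 6 of P0, with little spread between backgrounds, and Plxna3 fell by 1.83 ± 0.13 (adjusted p = 2.45e-10). Plxna2, a receptor of Sema6a, stood in mixed A at 8.92, 9.58 and 9.42 at P14 against 10.67, 10.92 and 9.92 at P0. The mixed B arrays read 9.17, 9.27 and 9.08 at P14 against 10.24, 10.36 and 10.37 at P0. The ages are apart, though the arrays of mixed A spread more, and Plxna2 fell by 1.30 ± 0.20 (adjusted p = 3.52e-05). Plxna4 fell by 0.97 ± 0.16 (adjusted p = 0.00306) on the probe set used, while the difference on the other of its probe sets was -0.21 and did not pass. Plxna1 did not pass (7.66 to 8.34 at P14 against 7.92 to 8.38 at P0 in the mixed wild types).

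The B-type plexins moved in opposite directions. Plxnb2, a Sema4 receptor of neural progenitors, stood in mixed A at 7.73, 7.55 and 7.44 at P14 against 9.04, 8.84 and 8.83 at P0. In mixed B it stood at 6.46, 6.32 and 6.66 at P14 against 8.04, 8.09 and 8.22 at P0. Mixed B is lower than mixed A at both ages, the ages do not overlap, and Plxnb2 fell by 1.62 ± 0.11 (adjusted p = 3.1e-10). Plxnb3, a Sema5a receptor that in the brain is known from oligodendrocytes, stood in mixed A at 8.59, 8.42 and 8.42 at P14 against 6.57, 6.38 and 6.63 at P0. Its mixed B values were 8.21, 8.14 and 8.18 at P14 against 6.40, 6.41 and 6.38 at P0. It is the only neuropilin or plexin that rose, by 1.74 ± 0.11 (adjusted p = 3.56e-12), and its other probe set rose by 3.00 before the median shift. The 11 myelin markers all rose (median 3.24 before the shift), as did 4 of 5 precursor markers. Their part in the change of Plxnb3 was not tested. Plxnb1 did not pass, nor did Plxnd1, the Sema3e receptor. Plxnc1, the Sema7a receptor, fell by 0.50 ± 0.08 (adjusted p = 0.0101), and 4 of its 5 tested probe sets fell, while the dimmest of its 6 (3.32 on average) was not tested.

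Among the 6 secreted class 3 semaphorins tested, 3 were called higher and 2 lower, and 2 of the 3 are dim. Sema3e stood in mixed A at 7.72, 7.89 and 7.94 at P14 against 6.07, 5.73 and 5.90 at P0, and in mixed B at 8.47, 8.32 and 8.12 against 6.15, 6.03 and 5.98. The ages are far apart in both backgrounds, the rise was 1.97 ± 0.12 (adjusted p = 4.72e-12), and all 4 probe sets rose. Sema3g, a ligand of Nrp2, rose by 0.87 ± 0.16 (adjusted p = 0.00098) and Sema3d by 0.65 ± 0.13 (adjusted p = 0.0013), but both were tested only through the P14 groups in which they are high. Their P0 values in the mixed wild types (4.21 to 4.53) lie below the filter of 5.253, as do Sema3g in mixed B at P14 (4.91, 5.20 and 4.83) and Sema3d in mixed A at P14 (4.92, 4.82 and 5.18). Sema3c stood in mixed A at 8.82, 8.64 and 8.85 at P14 against 9.59, 9.72 and 9.91 at P0, and in mixed B at 9.36, 9.44 and 9.49 against 9.69, 9.77 and 9.79. The step is wide in mixed A and narrow in mixed B, the ages do not overlap, and Sema3c fell by 0.78 ± 0.12 (adjusted p = 0.0281). Sema3a, the prototype repellent, stood in mixed A at 8.54, 8.34 and 8.48 at P14 against 8.92, 9.08 and 8.98 at P0. Mixed B held it at 8.27, 8.23 and 8.48 at P14 against 8.55, 8.83 and 8.79 at P0. P14 is below P0 in each background, and Sema3a fell by 0.60 ± 0.12 (adjusted p = 0.00534). Sema3d and Sema3a, which moved in opposite directions, are next to each other among the protein-coding genes of chromosome 5. Sema3f did not pass on the probe set used (0.33 before the shift), whereas its other 2 probe sets fell, with -1.24 and -1.03, so its direction is not settled.

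Of the membrane-bound semaphorins, class 4 held the largest fall of all members. Sema4c, a ligand of B-type plexins, stood in mixed A at 6.01, 5.95 and 6.16 at P14 against 7.79, 8.24 and 7.55 at P0. The mixed B arrays read 5.97, 5.92 and 6.07 at P14 against 8.03, 7.87 and 8.09 at P0. The P14 values lie close together, well below P0, and Sema4c fell by 2.04 ± 0.14 (adjusted p = 7.57e-11). Sema4b fell by 1.02 ± 0.11 and Sema4g fell by 0.95 ± 0.16 (adjusted p = 3.18e-07 and 0.000443). Sema4a stood in mixed A at 8.18, 8.06 and 8.14 at P14 against 7.50, 6.99 and 7.12 at P0, and in mixed B at 7.25, 7.06 and 7.08 against 6.62, 6.43 and 6.61. The ages do not overlap in either background, the step is wider in mixed A, and Sema4a rose by 0.61 ± 0.13 (adjusted p = 0.000495). Its other probe set differed by 0.45 before the shift and did not pass. Sema4d and Sema4f did not pass on the probe sets used, though another probe set of Sema4d rose by 1.87 before the shift.

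Sema5a, a transmembrane ligand of Plxnb3, rose by 0.73 ± 0.17 (adjusted p = 0.0109), with mixed A at 8.10, 8.80 and 8.82 at P14 against 8.09, 8.09 and 7.94 at P0. In mixed B it stood at 8.60, 8.71 and 8.85 at P14 against 7.60, 7.43 and 7.57 at P0. Mixed A replicate 1 at P14 lies at the level of P0, and the other P14 arrays lie above it. Sema7a, the lipid-anchored member, stood in mixed A at 9.75, 9.79 and 9.68 at P14 against 8.58, 8.59 and 8.32 at P0. Its mixed B values were 8.81, 8.91 and 8.90 at P14 against 8.38, 8.65 and 8.72 at P0. The rise of 0.63 ± 0.12 is at the edge of the threshold (adjusted p = 0.0459) and is wider in mixed A, and the other probe set of Sema7a, with 0.75 before the shift, did not pass. Of class 6, whose members bind class A plexins, Sema6b rose by 0.34 ± 0.14 and Sema6a by 0.26 ± 0.12 (adjusted p = 0.00942 and 0.00772). The other 2 probe sets of Sema6a differed by 0.02 and -0.10 before the shift and did not pass. Sema5a, Sema6a, Sema6b and Sema7a lost their calls with the median gene subtracted. Of the 12 fits that each leave out an array, the call was lost in 8 for Sema7a, in 4 for Sema3c, in 3 for Sema6b, in 2 each for Plxnc1 and Sema5a and in 1 for Sema6a. Sema5b, Sema6c and Sema6d did not pass.

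**Figure D1:**
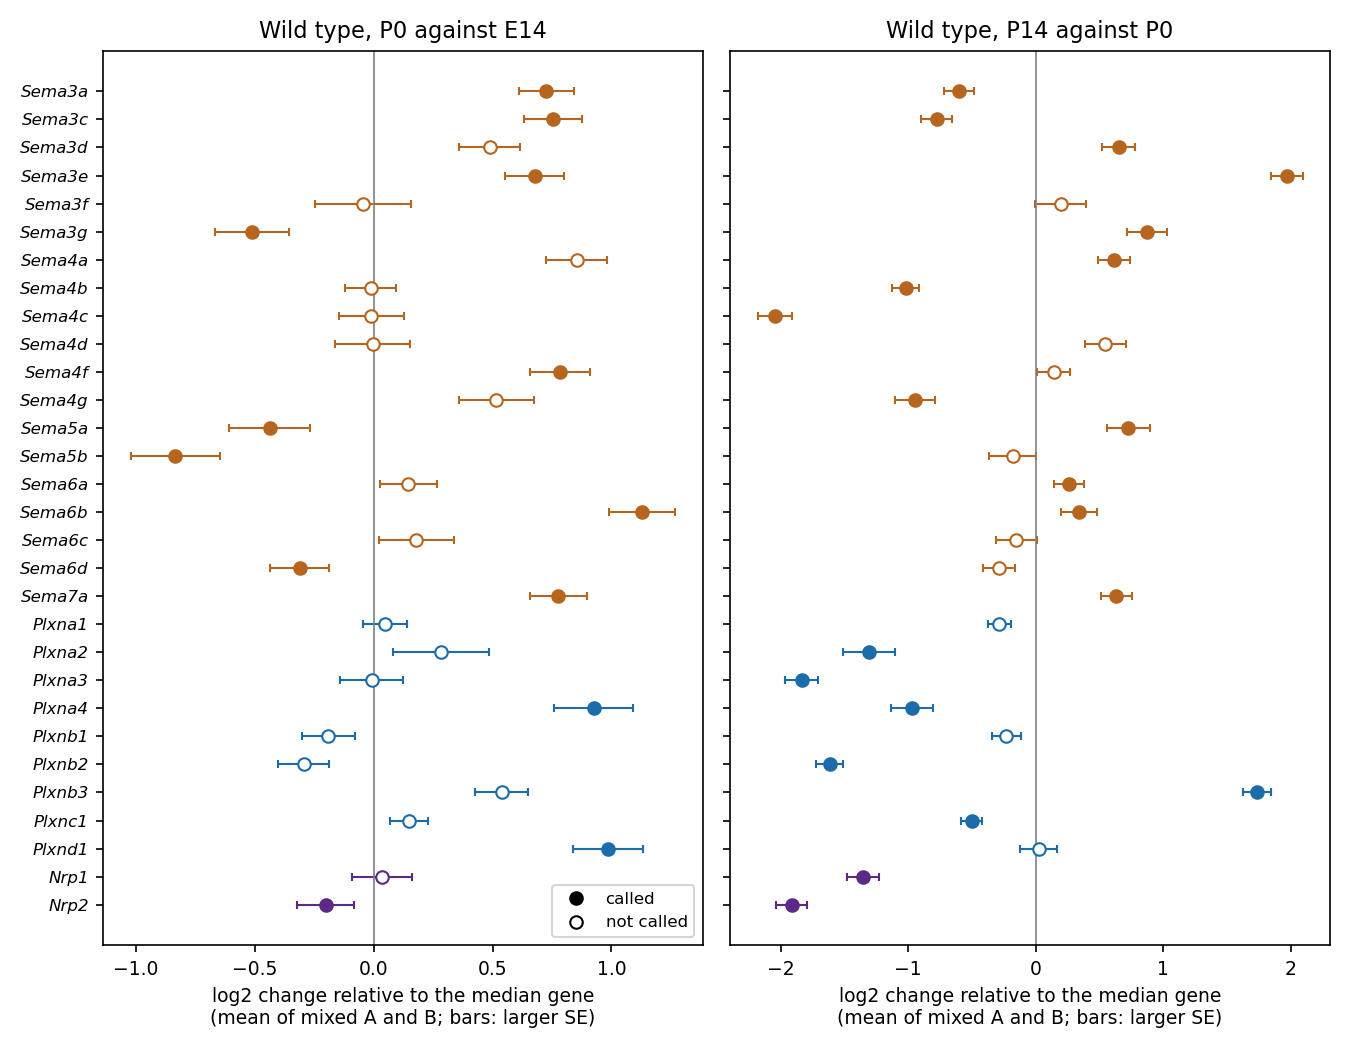
Log2 change of each of the 30 tested members relative to the median gene (x axis) in P0 against E14 and P14 against P0, mean of both mixed backgrounds with SE, filled where called. Sema4c, Nrp2, Plxna3 and Plxnb2 lie farthest to the left in P14 against P0, and Sema3e and Plxnb3 farthest to the right.

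Fewer members passed in the step before birth than in the later one, and the share of all genes was lower too. Of 30 members, 13 passed between E14 and P0 (43.3%), 8 higher and 5 lower at P0, while 49.8% of all genes tested passed, 14.8% higher and 35% lower. The members' share called is near that of all genes and is not read as a result about the members. With the median gene subtracted the split of members was 12 higher and 3 lower. With quantile normalization it was 11 and 2, where all genes leaned to higher too, with 3340 higher and 2540 lower. The counts of all genes with the median gene subtracted are not given here, and the lean of the members is not read as a result about them. Sema6b stood in mixed A at 6.20, 6.19 and 6.65 at P0 against 5.12, 5.13 and 5.01 at E14, and in mixed B at 5.91, 5.96 and 5.93 against 5.20, 5.47 and 5.27. Its ages do not overlap, and it rose by 1.13 ± 0.14 (adjusted p = 0.000734). Plxnd1 stood in mixed A at 8.24, 8.38 and 8.05 at P0 against 7.01, 7.55 and 7.60 at E14, and in mixed B at 7.85, 7.60 and 7.70 against 6.81, 7.10 and 6.98. It rose by 0.99 ± 0.15 (adjusted p = 0.000168) and was the sole receptor besides Plxna4 to rise. Plxna4 stood in mixed A at 8.56, 8.85 and 8.34 at P0 against 7.32, 7.48 and 8.01 at E14, and in mixed B at 7.81, 8.04 and 8.02 against 7.60, 7.35 and 7.45. Mixed A replicate 3 at E14 comes nearest to P0, and Plxna4 rose by 0.93 ± 0.16 (adjusted p = 0.0162), a call lost in 3 of 12 fits that leave out an array. Sema3a, Sema3c, Sema3e, Sema4f and Sema7a rose by 0.68 to 0.78, each with an SE of 0.12 or 0.13. Other probe sets bear this out in part: those of Sema3c and Sema4f rose too, while those of Plxna4, Sema3a and Sema7a had the same sign and did not pass. Of the 4 probe sets of Sema3e only the one used passed, and another differed by -0.48 before the shift.

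Both class 5 semaphorins fell between E14 and P0. Sema5b, which repels axons, stood in mixed A at 5.80, 6.24 and 5.99 at P0 against 6.65, 7.21 and 7.64 at E14, and in mixed B at 5.61, 6.11 and 5.72 against 6.55, 6.73 and 6.86. It fell by 0.84 ± 0.19 (adjusted p = 0.000315), and its other probe set fell too. Sema5a fell by 0.44 ± 0.17 (adjusted p = 0.00579), and the changes were -0.51 ± 0.16 for Sema3g, -0.31 ± 0.12 for Sema6d and -0.20 ± 0.12 for Nrp2 (adjusted p = 0.000919, 0.0489 and 0.0162, from the test without the median shift). With the median gene subtracted before the test, the calls of Sema6d and Nrp2 were lost. Sema6d also lost its call in 8 of 12 fits that leave out an array, and Nrp2 in 2 of 12. Both lost it with the replicate number as a block, with quantile normalization and with the mean of their probe sets. Sema5a lost its call with the block and with quantile normalization. Sema3g was tested only because P14 groups lie above the filter of 5.253, and all its group means at E14 and P0 lie below it (4.32 to 5.05), so its change is one between dim values. The other probe sets of Nrp2 differed by 0.17, -0.24 and -0.80 before the shift, and only the last passed. Sema5b in mixed A at E14 was highest in replicates 2 and 3, which are among the 6 arrays low in the midbrain, hindbrain and spinal cord list. Without those 6 arrays mixed A at E14 is left with replicate 1 alone. The calls of Nrp2 and Sema5a were lost in that fit, which rests on this lone array. Of that list's 7 tested genes, 3 fell between E14 and P0. Astrocyte markers rose in 4 of 8 genes (list mean 8.62 to 8.78 at P0 against 7.24 to 7.61 at E14 in mixed A, and 8.32 to 8.55 against 7.50 to 7.55 in mixed B). Precursor markers rose in 4 of 5 (7.58 to 8.10 at P0 against 6.60 to 6.89 at E14 in mixed A, and 7.84 to 7.92 against 6.91 to 7.03 in mixed B). Microglial markers rose in 3 of 10, and choroid plexus markers fell in 2 of 6 (7.03 to 7.42 at P0 against 7.90 to 7.96 at E14 in mixed B, with overlap in mixed A). Their part in these changes was not tested. Sema4a rose by 1.13 in mixed A (adjusted p = 6.71e-08, before the shift) and differed by 0.20 in mixed B (adjusted p = 0.182), so it was not called.

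Across both steps the members took all routes. Plxna4, Sema3a and Sema3c rose into P0 and fell after it, Sema3e, Sema6b and Sema7a rose in each step, Sema5a and Sema3g were called lower and then higher, and Nrp2 lower in each step. The calls of Plxna4 and Sema3g and the earlier calls of Nrp2 and Sema5a carry the limits given above. So do the later calls of Sema3c, Sema5a, Sema6b and Sema7a. The earlier calls of Sema3a and Sema3e were lost with the mean of all probe sets. A further 8 members passed only in the later step and fell, and 4 passed only there and rose. Plxna1, Plxnb1, Sema3f, Sema4d and Sema6c passed in neither step. In inbred wild types, which have no E14 arrays, Plxna4 stood at 8.24, 7.67 and 8.01 at P14 against 8.73, 8.89 and 8.60 at P0.

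**Figure D2:**
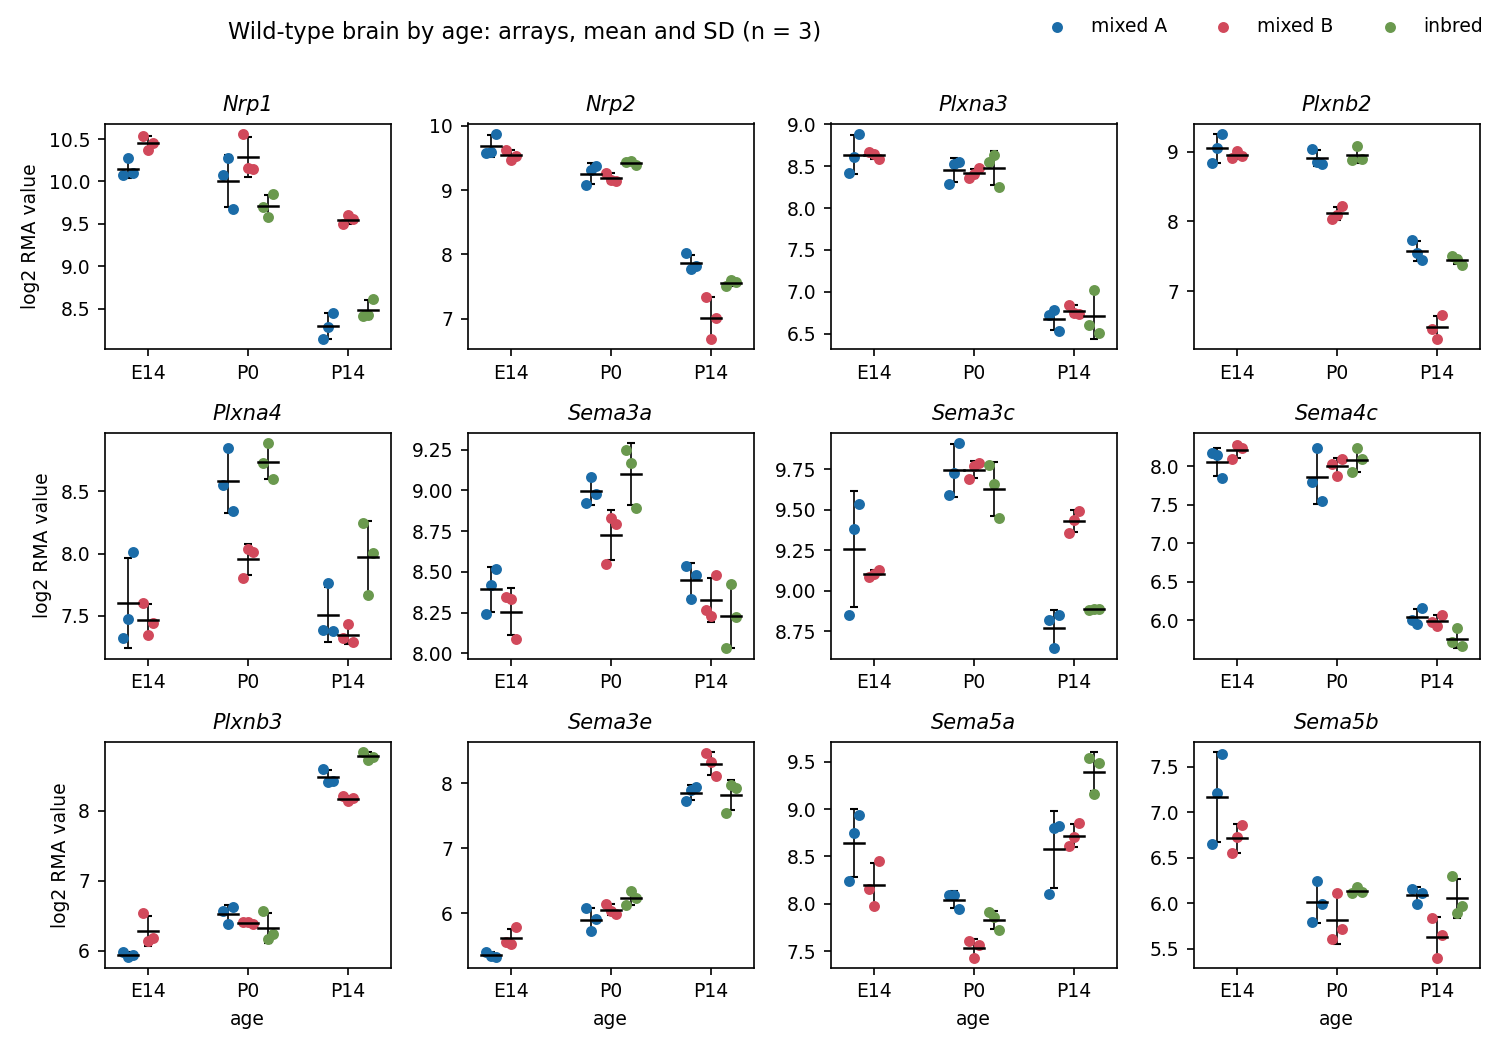
Log2 values of 12 members (y axis) by age (x axis) in wild types of mixed A, mixed B and the inbred background, 1 point per array with lines for the mean and SD. Nrp1, Nrp2, Plxna3, Plxnb2 and Sema4c drop at P14, Plxnb3 and Sema3e climb, and Plxna4, Sema3a and Sema3c are highest at P0.

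The later step was also read in the inbred wild types, whose arrays are part of the same wild-type fit and share its estimate of the spread. Of 30 members, 23 passed, 9 higher and 14 lower at P14, against 71.7% of all genes tested, 38% higher and 33.8% lower. Of the 21 members called in both mixed backgrounds, 19 were called here with the same sign. The exceptions were Sema6a and Sema6b, whose differences of 0.02 ± 0.12 and 0.15 ± 0.14 did not pass (adjusted p = 0.635 and 0.231), and 0 of the 4 class 6 members tested were called. Plxnb3 rose by 2.41 ± 0.11, Sema3e by 1.54 ± 0.12 and Sema5a by 1.52 ± 0.17, while the changes were -2.37 ± 0.14 for Sema4c, -1.91 ± 0.12 for Nrp2, -1.81 ± 0.13 for Plxna3, -1.55 ± 0.11 for Plxnb2 and -1.27 ± 0.13 for Nrp1. Called in the inbred background and not in the mixed ones were 4 members, Plxna1, Plxnd1, Sema3f and Sema4d. Plxna1 fell by 0.70 ± 0.09 (adjusted p = 1.43e-06). Sema4d rose by 0.79 ± 0.16 (adjusted p = 6.5e-05). Sema3f was at 10.37, 9.12 and 9.05 at P14 against 8.64, 8.45 and 8.59 at P0, with replicate 1 of P14 far above the others. Its rise of 0.95 before the shift was 0.52 without that array and was called in each case (adjusted p = 0.000224 and 0.000114), while the mean of its probe sets fell. Plxnd1 was called lower with adjusted p = 0.0485 and lost the call in 5 of 6 fits that leave out an array.

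Downstream of the receptors, a list of 52 partners and effectors on the arrays was read in the same fits. Between P0 and P14, 14 of 49 tested rose and 15 fell, against 34.3% and 22.1% of all genes. Cntn2, a cell adhesion molecule of axons, fell by 2.91 ± 0.19, and Mical1, a plexin-bound enzyme that oxidises actin, fell by 2.39 ± 0.20. Dpysl5 and Dpysl3, members of the CRMP family that carries Sema3a signals to the cytoskeleton, had changes of -2.30 ± 0.14 and -2.0 ± 0.07. Of the CRMPs 3 of 5 fell and 0 rose, of the MICALs 3 of 5 fell and 1 rose, and of the small GTPases and their regulators 6 of 15 rose and 3 fell. Between E14 and P0, 10 of 49 rose and 12 fell. Met, a receptor kinase that associates with B-type plexins, rose by 3.08 ± 0.11 and Rnd1, a GTPase that binds plexins, by 1.32 ± 0.14, while Rnd3 fell by 1.00 ± 0.12 and Rnd2 fell by 0.80 ± 0.13. Of other cell types' markers, 7 of 8 astrocyte and 10 of 10 microglial genes rose between P0 and P14, and 4 of 6 choroid plexus genes fell. Their part in the members' changes was not tested.

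The wild types of mixed A and mixed B differed from each other at P0 and P14. At E14, 0 of 28 members passed (limma), 9 had an unadjusted p under 0.05, and 0.0681% of all genes passed at the adjusted threshold. Mixed A is uneven at E14, with the midbrain, hindbrain and spinal cord list at 4.22 and 4.24 in replicates 2 and 3 against 6.22 in replicate 1. The part of this in the spread was not tested, and the count of 0 is not read as absence of a difference. At P0, 12 of 28 members passed, 9 higher and 3 lower in mixed A, against 28.7% of all genes, 18.1% higher and 10.7% lower. At P14, 21 of 31 members passed, 15 higher and 6 lower, against 52.7% of all genes, 37.4% higher and 15.2% lower. Quantile normalization left 9 members higher and 6 lower, where all genes had 3738 higher and 2352 lower. Plxnb2 was higher in mixed A than in mixed B by 0.79 ± 0.11 at P0 and by 1.09 ± 0.14 at P14 (adjusted p = 1.7e-05 and 1.26e-06). Sema6a stood at P14 at 7.96, 7.86 and 7.55 in mixed A against 6.94, 6.86 and 6.90 in mixed B, a difference of 0.89 ± 0.11 (adjusted p = 8.13e-07). All 3 probe sets of Sema6a have this sign at P0 and P14. Sema4a differed by 0.65 ± 0.14 at P0 and 1.00 ± 0.10 at P14 on the probe set used, but its other probe set was lower in mixed A at P14 (-0.58) and was called there. Sema7a was higher by 0.87 ± 0.12 and Nrp2 by 0.86 ± 0.16 in mixed A at P14, and Sema3c was lower (-0.66 ± 0.11).

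Nrp1 at P14 was lower in mixed A than in mixed B, with a difference of -1.26 ± 0.22 (adjusted p = 4.09e-05), from the values given above. The other 3 probe sets of Nrp1 differed by 0.11, -0.32 and 0.02 and did not pass, so the difference belongs to 1 of 4 probe sets. Sema4d was higher in mixed A on all 3 of its probe sets at P14, by 0.69, 0.87 and 0.80. Sema5a at P0 was higher in mixed A on the probe set used (0.51 ± 0.11) and lower on the other one tested (-0.47, called), with 2 more too dim to test. At P14 the markers of other cell types moved too: 7 of 12 tested endothelial and mural genes, 6 of 11 meningeal, 6 of 11 myelin and 5 of 10 microglial genes were higher in mixed A. So were 5 of 8 astrocyte genes (list mean 10.75 to 10.87 in mixed A against 10.31 to 10.46 in mixed B), 3 of 5 precursor genes (9.70 to 9.78 against 9.36 to 9.56) and 2 of 4 choroid plexus genes, while 1 microglial, 1 astrocyte and 1 precursor gene was lower. At P0, 4 of 12 endothelial and mural genes (7.35 to 7.63 in mixed A against 7.20 to 7.31 in mixed B) and 4 of 7 astrocyte genes (8.62 to 8.78 against 8.32 to 8.55) were higher in mixed A, as was 1 of 11 meningeal genes (7.89 to 7.92 against 7.44 to 7.79) and 1 of 9 microglial genes (6.52 to 6.89 against 6.24 to 6.51). Their part was not tested. Inbred wild types set against both mixed wild types gave 0 of 28 called members at P0 and 0 of 31 at P14 (limma), with 3 and 5 at an unadjusted p under 0.05, where 1% and 0.244% of all genes passed. Passing against both asks for a level outside 2 wild types that differ for many members, so these counts of 0 are not read as likeness. Mixed B alone gave 13 of 28 at P0 and 19 of 31 at P14 (all genes 45.4% and 48.6%). Mixed A alone gave 0 of 28 and 3 of 31 (all genes 2.44% and 4.2%).

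At P0 and P14 the 2 mixed wild types stand on opposite sides of the arrays' main axis of variation. At these ages the first principal component places the libraries labelled Ndel1 ko/cko, Ndel1 ko/+ and Dcx ko/Y with mixed B, and the Lis1, inbred and Ndel1 ko/+ mix libraries with mixed A. It carries 39.36% of the P0 variance and 57.62% of the P14 variance. At E14 it carries 48.45% and does not part them: it sets the 6 arrays lowest in the midbrain, hindbrain and spinal cord list, from 4 groups, against the other 18, with mixed A replicate 1 on the side of mixed B. The study defined no such sets, and the component was computed from these same values, so ranges by side describe the arrays and test nothing. The members named next are ones whose sides are apart. Others overlap, such as Plxna2 at P14 (8.92 to 9.86 on the side of mixed A against 9.08 to 9.35). The share of all genes with sides apart is not given here. The limits from the other probe sets of Nrp1 and Sema4a hold here too. At P14, Plxnb2 ranged from 7.38 to 7.83 in the 15 arrays on the side of mixed A and from 6.07 to 6.85 in the 9 on the side of mixed B. Sema4a ranged from 7.94 to 8.34 against 6.88 to 7.26, Sema4d from 8.14 to 8.53 against 7.16 to 7.72, and Nrp1 from 7.49 to 8.61 against 8.72 to 9.60, in the same order of sides. At P0 the ranges of Sema4a (6.95 to 7.83 in 18 arrays against 6.15 to 6.80 in 12) and Sema6a (7.10 to 7.75 against 6.31 to 7.04) were apart. Actin probe sets of the 3′ end exceeded those of the 5′ end by 0.122 to 0.214 on the side of mixed A and 0.274 to 0.449 on that of mixed B at P0. At P14 the excess was 0.497 to 0.956 and 0.627 to 0.717. Background, handling and RNA quality cannot be told apart here. At E14 the actin excess was 0.125 to 0.244 in the 6 arrays and 0.106 to 0.223 in the other 18. Every P14 array thus had a larger actin excess than any array of E14 or P0. The part of RNA quality in the changes between ages was not tested.

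**Figure D3:**
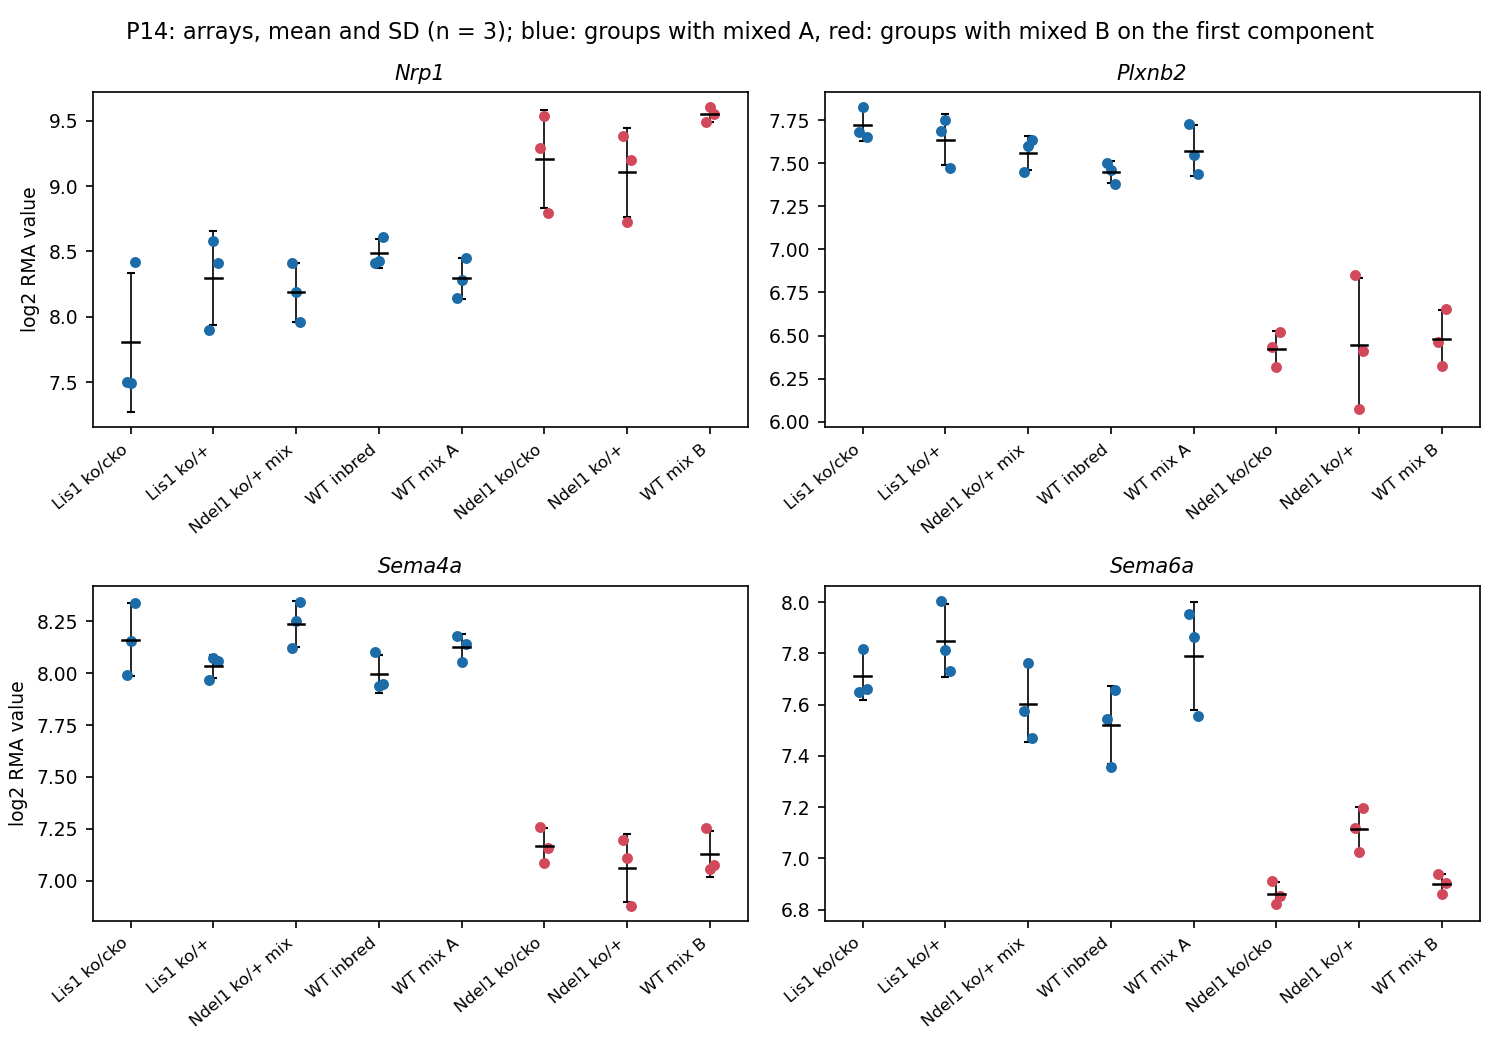
Log2 values at P14 of Nrp1, Plxnb2, Sema4a and Sema6a (y axis) in all 8 groups (x axis), 1 point per array with lines for the mean and SD, blue for groups on the side of mixed A on the first component and red for those on the side of mixed B. The colours do not overlap for any of the 4 genes shown, which are ones whose sides are apart, while those of other members overlap.

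Against both mixed wild types few members passed in any mutant. At P0 and P14 this asks for a level outside 2 wild types that differ from each other for many members. At E14, 0 of 28 members passed in each of the 6 mutants (limma), with 0 to 1 at an unadjusted p under 0.05 and 0.0341% of all genes called in Ndel1 ko/+, 0.0426% in Dcx ko/Y and 0% in the other 4. Arrays low in the midbrain, hindbrain and spinal cord list lie in 4 of the E14 groups, mixed A among them. Their part in the spread was not tested, and a count of 0 is not read as absence of a difference. At P0, Ndel1 ko/+ had 2 of 28 members lower, against 4.05% of all genes called, 2.62% lower, and a count of 2 is not read as a result about the members as a group. Nrp2 stood at 8.79, 9.0 and 8.62 in Ndel1 ko/+, against 9.08, 9.31 and 9.38 in mixed A and 9.27, 9.15 and 9.14 in mixed B. The groups do not overlap, and Nrp2 fell by 0.42 ± 0.11 (adjusted p = 0.0382), a call lost in 6 of the 9 fits without an array of these groups and with the mean of its probe sets. Sema3c stood at 9.37, 9.49 and 9.38 in Ndel1 ko/+, against 9.59, 9.72 and 9.91 in mixed A and 9.69, 9.77 and 9.79 in mixed B. It fell by 0.33 ± 0.09 (adjusted p = 0.0332), its other probe set fell by 0.83, and the call was lost in 7 of the 9 fits. With quantile normalization neither passed. In the same mutant Met rose by 1.03 ± 0.15 and Rnd1 by 0.72 ± 0.17. Choroid plexus markers were lower in 3 of 6 tested genes, with a list mean of 6.0 to 6.30 in Ndel1 ko/+ against 6.93 to 7.42 in the mixed wild types. Endothelial and mural markers were lower in 2 of 12, at 6.82 to 7.04 against 7.20 to 7.63. Their part in the result was not tested.

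The other P0 mutants had 0 called members of 28 (limma): Lis1 ko/cko with 0.331% of all genes called, Ndel1 ko/cko with 0.849%, Dcx ko/Y with 0.0255% and Lis1 ko/+ with 0%. In Lis1 ko/cko the members' median difference was 0.27 against -0.01 for all genes. The share of all genes at an unadjusted p under 0.05 is not given here, and 8 members had such a p. Among them, Plxna3 differed by 0.39 ± 0.11, Plxnc1 by 0.37 ± 0.11, Nrp2 by 0.37 ± 0.11 and Sema3f by 0.30 ± 0.09, with adjusted p between 0.154 and 0.183. Nrp2 stood at 9.55, 9.64 and 9.60 in Lis1 ko/cko, above every mixed wild-type array at P0, and still missed the threshold over all genes. Inbred mutants at P0 set against the inbred wild type gave 0 of 28 in each case (limma), with 4 at an unadjusted p under 0.05 in Ndel1 ko/+ inbred (0.255% of all genes called) and 6 in 14-3-3 epsilon ko/ko inbred (0.0255%). Nrp1 stood at 10.20, 10.45 and 10.27 in Ndel1 ko/+ inbred against 9.70, 9.59 and 9.85 in inbred wild type. The difference of 0.60 ± 0.16 had an adjusted p of 0.0827, in libraries where Ndel1 itself was not lower.

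At P14, 0 of 31 members passed in each of 5 mutants (limma), with 0 to 2 at an unadjusted p under 0.05. Of all genes 6.32% passed in Lis1 ko/cko, 0.0895% in Ndel1 ko/cko, 0.114% in Ndel1 ko/+ mix and 0% in both Lis1 ko/+ and Ndel1 ko/+. Both mixed wild types lie far apart for many members at this age, so passing against both asks for a level outside them. With mixed A alone, 35 member calls were made over the 5 mutants, where 0.00813% of all genes passed in Lis1 ko/+, 13.9% in Lis1 ko/cko, 52.3% in Ndel1 ko/+, 52.8% in Ndel1 ko/cko and 0.968% in Ndel1 ko/+ mix. With mixed B alone, 57 were made, where 52.6%, 59.7%, 0%, 0.179% and 52.6% of all genes passed in the same order of mutants. Sema7a in Lis1 ko/cko differed by -0.43 from mixed A and by 0.44 from mixed B.

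Comparing ko/cko with ko/+ of the same gene leaves the wild types out. At P0, Ndel1 ko/cko had 3 of 28 members higher than Ndel1 ko/+, against 9.13% of all genes called, 5.93% higher, and the members' share called is near that of all genes called. Sema3c stood at 9.98, 9.96 and 10.10 in Ndel1 ko/cko against 9.37, 9.49 and 9.38 in Ndel1 ko/+. The groups are apart and each is tight, and the difference was 0.60 ± 0.09 (adjusted p = 0.000197). The other probe set of Sema3c differed by 0.46 (adjusted p = 0.0564). Against both mixed wild types, however, Sema3c in Ndel1 ko/cko differed by 0.27 on the probe set used and by -0.37 on the other, and passed on neither. Plxna3 stood at 8.69, 8.85 and 8.85 in Ndel1 ko/cko against 8.37, 8.19 and 8.42 in Ndel1 ko/+, a difference of 0.47 ± 0.11 (adjusted p = 0.00955). The other probe set of Plxna3 differed by 0.45 (adjusted p = 0.0365), and without Ndel1 ko/+ replicate 2 the adjusted p was 0.0591. Sema5a stood at 7.48, 7.80 and 7.57 in Ndel1 ko/cko against 7.30, 7.21 and 7.30 in Ndel1 ko/+. Its difference of 0.34 ± 0.11 (adjusted p = 0.0483) was lost without any 1 of the 6 arrays. Cntn2 was higher by 1.05 ± 0.16, Mical1 by 0.57 ± 0.12 and Rras, a target of plexins, by 0.49 ± 0.15, and Rnd1 was lower (-0.54 ± 0.17). Astrocyte markers were lower in 3 of 7 tested genes, with a list mean of 8.12 to 8.27 in Ndel1 ko/cko against 8.35 to 8.53 in Ndel1 ko/+. Precursor markers were lower in 1 of 5 (7.74 to 7.87 in Ndel1 ko/cko against 8.03 to 8.16 in Ndel1 ko/+), and endothelial and mural markers were higher in 1 of 12 (7.11 to 7.22 against 6.82 to 7.04). The microglial list mean was 6.17 to 6.34 against 6.35 to 6.42, with 0 of 9 genes called (limma). Their part was not tested.

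**Figure D4:**
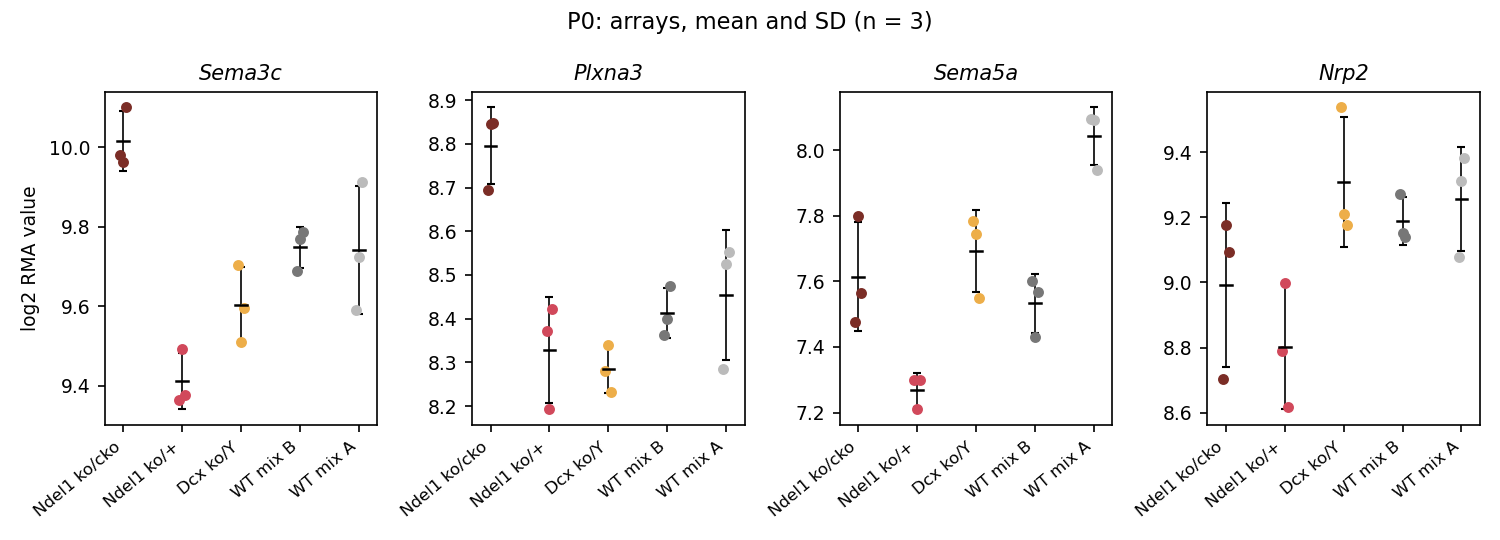
Log2 values at P0 of Sema3c, Plxna3, Sema5a and Nrp2 (y axis) in Ndel1 ko/cko, Ndel1 ko/+, Dcx ko/Y, mixed B and mixed A (x axis), 1 point per array with lines for the mean and SD. Sema3c, Plxna3 and Sema5a are higher in all 3 arrays of Ndel1 ko/cko than in Ndel1 ko/+.

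At P14, Lis1 ko/cko had 2 of 31 members lower than Lis1 ko/+, against 8.02% of all genes called, 2.86% lower, again a share near that of all genes. Plxnb3 stood at 7.91, 7.95 and 8.38 in Lis1 ko/cko against 8.35, 8.60 and 8.65 in Lis1 ko/+. Replicate 3 of Lis1 ko/cko overlaps the lowest array of Lis1 ko/+, and the difference was -0.46 ± 0.11 (adjusted p = 0.0172). Sema7a stood at 9.08, 9.18 and 9.67 in Lis1 ko/cko against 9.74, 9.54 and 9.79 in Lis1 ko/+, a difference of -0.38 ± 0.12 (adjusted p = 0.0419). Here too replicate 3 of Lis1 ko/cko lies among the Lis1 ko/+ arrays, and the other probe set of Sema7a differed by 0.08. Without replicate 3 of Lis1 ko/cko, 5 members were called, and without replicate 1 or replicate 2, 0. Of Lis1 ko/+, leaving out replicate 1 gave 3 and leaving out replicate 2 or replicate 3 gave 0. The share of all genes called in these fits is not given here, so the counts show only how much the calls depend on single arrays. The myelin markers were lower in 5 of 11 genes, with a list mean of 8.57 to 9.12 in Lis1 ko/cko against 9.0 to 9.40 in Lis1 ko/+. Precursor markers were lower in 2 of 5, meningeal markers higher in 4 of 11 and microglial markers higher in 3 of 10. The choroid plexus list mean was 5.01 to 5.37 in Lis1 ko/cko against 5.82 to 6.25 in Lis1 ko/+, with 1 of 4 tested genes lower. The part of these cell types in the result was not tested. Probe sets not used here also passed: a probe set of Nrp1 was lower (-0.71), a probe set of Sema4d was lower (-0.60) and the other of Sema3c was higher (0.52). Members called were 0 for Lis1 at E14 and P0 and for Ndel1 at E14 and P14 (limma), with 1, 8, 2 and 4 at an unadjusted p under 0.05. Of all genes 0.0426%, 0.569%, 0.128% and 0.309% passed there.

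Whether a mutant's difference changes between P0 and P14 was tested in the fit of all 78 arrays. In Lis1 ko/cko 1 of 31 members passed, against 2.87% of all genes, 0.644% with a negative sign, so the members' share is near that of all genes. Plxna3 stood at 6.29, 6.25 and 6.77 at P14 and 8.72, 9.0 and 8.75 at P0 in Lis1 ko/cko, against 6.54 to 6.85 at P14 and 8.28 to 8.55 at P0 in the mixed wild types. It was above all mixed wild-type arrays at P0, and below them at P14 in replicates 1 and 2 but not replicate 3. The interaction was -0.68 ± 0.18 (adjusted p = 0.0384), and that of the other probe set was -0.55 (adjusted p = 0.209). Leaving out 1 array ended the call in 8 of 18 cases, among them Lis1 ko/cko replicates 1 and 2 at P14 (adjusted p = 0.177 and 0.181), replicates 2 and 3 at P0 (0.146 and 0.0503), mixed A replicates 1 and 3 at P0 (0.101 and 0.0549) and mixed A replicates 1 and 2 at P14 (0.0687 and 0.108). Nrp1 stood at 7.50, 7.49 and 8.42 at P14 and 10.22, 10.26 and 10.49 at P0 in Lis1 ko/cko. Its interaction was -1.29 ± 0.25 (adjusted p = 0.0654), and 2 of the other probe sets of Nrp1 passed, with -0.64 (adjusted p = 0.0441) and -0.94 (adjusted p = 0.00382). The interactions of Lis1 ko/+, Ndel1 ko/cko, Ndel1 ko/+ and inbred wild type called 0 members (limma), with 0, 1, 0 and 3 at an unadjusted p under 0.05. Of all genes 0%, 0.046%, 0.0613% and 0% passed there.

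**Figure D5:**
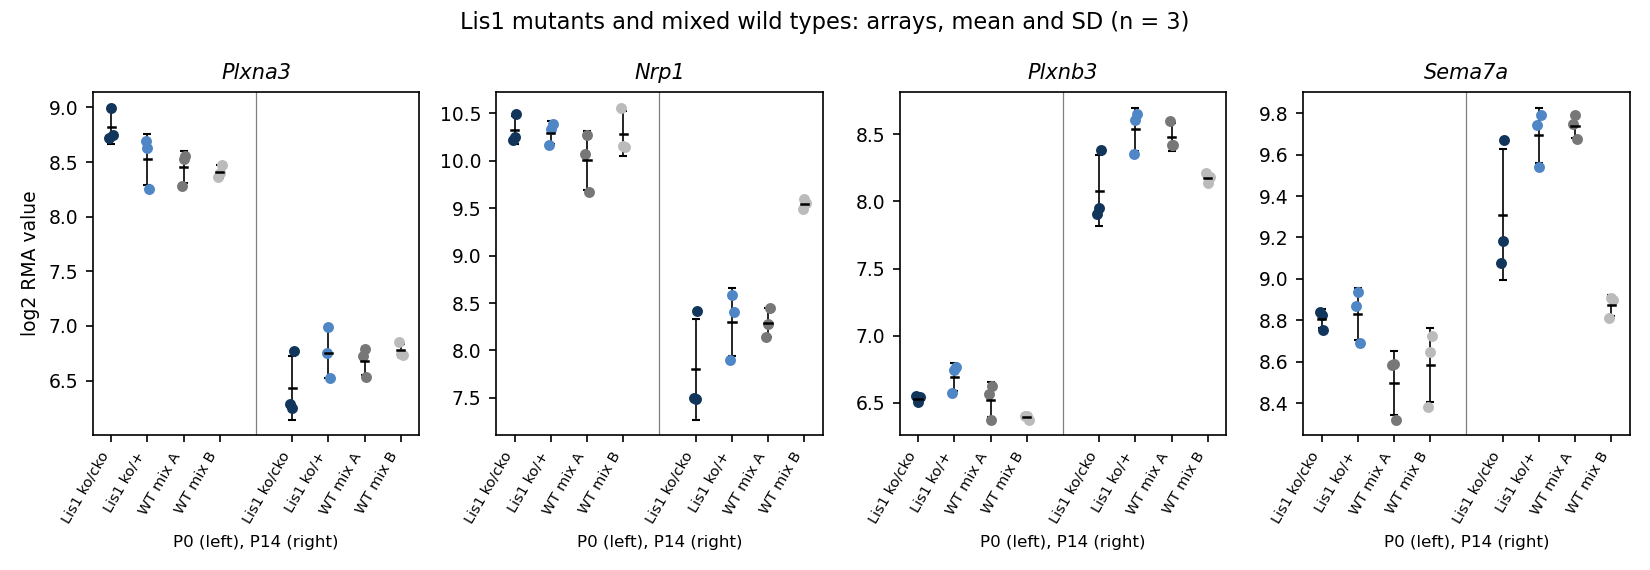
Log2 values of Plxna3, Nrp1, Plxnb3 and Sema7a (y axis) in Lis1 ko/cko, Lis1 ko/+, mixed A and mixed B at P0 (left) and P14 (right), 1 point per array with lines for the mean and SD. At P14 replicates 1 and 2 of Lis1 ko/cko lie below replicate 3 for each of the 4 genes.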

How the data were processed

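The authors deposited log2 values of each probe set, summarised with RMA per the submitters' processing notes. Its version, background step and scale between ages are not given in the sources used here. With the values of each array put in order of size, arrays of the same age were closer to each other than arrays of different ages. The median rms gap was 0.03 within an age and 0.16 between ages. Whether the ages were processed separately, and the part of processing in the changes between ages, was not tested. All 78 columns were matched to samples. Probe sets naming 1 gene were kept (34958 of 45101), and a gene was read from the probe set with the highest mean. Members and gene lists were chosen with earlier results of these data known. Every member may be named, and of the partners list the 4 called genes with the largest change per comparison.

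Tests used limma 3.58.1 in R 4.3.3: 1 mean per group, with variances moderated along a trend. Fits were made per age, in wild types across ages, and in all arrays for interactions. A gene was tested if a group mean was at least 5.253 (the median value in the files), from 11744 at E14 to 13053 in the fit of all arrays. RMA compresses low values, so changes of dim members may be understated. The procedure was tested on simulated data. Alternatives were the filter, the mean of all probe sets, quantile normalization, a median shift, a replicate block, each mixed wild type alone and leaving out each array. Leaving out 6 E14 arrays was chosen after seeing the data.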

Additional observations from a re-analysis of the deposited data

Results flagged for a closer look

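The difference of Plxna3 between Lis1 ko/cko and the mixed wild types changed between P0 and P14. The interaction was -0.68 ± 0.18 (limma, adjusted p = 0.0384). It was -0.61 against mixed A and -0.75 against mixed B, and a call requires the same sign in both. The call was lost in 8 of 18 fits that leave out an array. It was also lost without the filter and with the replicate block (limma, adjusted p = 0.0522 and 0.0538).

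Sema6a moved in opposite directions between E14 and P0 in the 2 mixed backgrounds. In mixed A it rose by 0.43 (adjusted p = 0.00327 before the median shift), with 7.55, 7.38 and 7.25 at P0 against 7.03, 7.02 and 6.85 at E14. In mixed B the difference was -0.52 (adjusted p = 0.000787), with 6.57, 6.31 and 6.65 at P0 against 7.05, 7.01 and 7.01 at E14. The difference between the backgrounds was not tested.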

How the results depend on the processing

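The replicate numbers did not pair samples (median correlation -0.03 at E14, -0.01 at P0 and 0.00 at P14). With the number as a replicate block, called members were 8 in place of 13 for P0 against E14, 16 in place of 21 for P14 against P0 and 0 in place of 1 for the interactions, while mutants at P0 kept a count of 2. Without the filter, counts were 1 for mutants at P0, 1 for the Lis1 dose and 0 for the interactions. With the mean of all probe sets they were 1 for mutants at P0, 1 at P14 and 2 for the interactions. All arrays in 1 fit gave 1 for mutants at P0. Quantile normalization gave 0 for mutants at P0 and 1 for inbred against mixed wild types at P14. Counts with 1 mixed wild type are given with the members' share and that of all genes. The other counts in this paragraph stand without the share of all genes in the same fits. They are not read as results about the members. Mixed A alone gave 20 of 30 for P0 against E14 (66.7%, all genes 68.5%), 36 of 140 for mutants at P0 (25.7%, 21.8%), 35 of 155 at P14 (22.6%, 24%), 17 of 155 for the interactions (11%, 7.5%) and 3 of 31 for inbred wild types at P14 (9.68%, 4.2%). Mixed B alone gave 27 of 140 (19.3%, 13.3%), 57 of 155 (36.8%, 33%) and 18 of 155 (11.6%, 10.9%) for mutants at P0, mutants at P14 and interactions, and 13 of 28 (46.4%, 45.4%) and 19 of 31 (61.3%, 48.6%) for inbred wild types at P0 and P14. The planned removal of E14 arrays below the widest gap in region score left out 16 of 24 arrays. It could be run only for the Lis1 dose, where E14 Lis1 ko/cko was left with replicate 2, a lone sample assumed to vary like the other groups. The count of 4 in place of 2 adds Nrp1 and Plxna2 at E14 and rests on that 1 array. In each case the cause was not tested. Leaving out 1 array gave 10 to 13 members for P0 against E14, 18 to 22 for P14 against P0, 21 to 23 for inbred wild types, 0 at E14, 8 to 10 at P0 and 14 to 20 at P14 for mixed A against mixed B, 0 to 1 and 0 for inbred against mixed wild types at P0 and P14, 0 at E14, 0 to 2 at P0 and 0 to 2 at P14 for mutants, 0 for inbred mutants, 0 to 5 for the Lis1 dose, 1 to 3 for the Ndel1 dose and 0 to 2 for the interactions. Signs reversed with the mean of all probe sets for Sema3f (-0.549 in inbred P14 against P0, -0.645 in mixed, 0.300 in mixed A against B at P0), Sema4d (0.369 in P0 against E14), Sema6a (-0.239 in inbred P14 against P0) and Sema6d (-0.0167 in mixed A against B at P14). With mixed A alone they reversed for Sema6a (0.426 in P0 against E14, -0.437 in Dcx ko/Y at P0), Sema7a (-0.427 in Lis1 ko/cko at P14), Sema3c (0.281 in Ndel1 ko/cko at P14) and Sema4b (0.245 in Ndel1 ko/+ at P0). Sema3b, Sema3d, Sema3g and Plxna4os1, and Sema6b at E14, lie near or below the filter, where signal over background limits any statement.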
